A study of Mus musculus with 6 samples.

Results

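Genes of bone and cartilage mineralization, 10 of the 55416 in the deposited table, were followed in primary mouse chondrocytes with and without knockdown of Pkm2, a pyruvate kinase isoform of glycolysis. They were chosen by gene symbol: Spp1, Ibsp, Dmp1 and Mepe, secreted acidic proteins of the SIBLING family that bind mineral; Mgp and Enpp1, which hold mineral back; Alpl, Phospho1 and Phex, enzymes and a peptidase of mineral formation; and Sp7, the osteoblast transcription factor osterix. All 6 libraries were made from total RNA of primary chondrocytes labelled as coming from knee joints of neonatal mice, whereas the supplementary methods name adult mice; strain and sex are not in the labels. The siNC group (n = 3 libraries, genotype labelled WT) received a scrambled siRNA and the siPkm2 group (n = 3) an siRNA against Pkm2. The genotype labels of siPkm2 replicates 2 and 3 name other PKM numbers than PKM2, and the titles, which name all 3 siPKM2, were followed. No source used here ties a numbered library to a separate animal or culture. P-values without a block measure the spread between these libraries. With the replicate number as a block, they measure how far the siPkm2 to siNC differences vary between replicate numbers. Either spread may be technical.

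Mineral in cartilage and bone begins in vesicles budded from hypertrophic chondrocytes and osteoblasts. PHOSPHO1 releases phosphate inside the vesicle, and tissue-nonspecific alkaline phosphatase, the product of Alpl, removes pyrophosphate outside it, which ENPP1 produces and which blocks crystal growth. Matrix Gla protein, the product of Mgp, keeps cartilage and arteries free of mineral, and osteopontin, the product of Spp1, both inhibits crystals and anchors cells.

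Total counts lay between 22316996 and 25691029 per library. Pkm, the targeted gene, whose counts hold both splice isoforms, stood at 1654.27, 2209.40 and 1293.30 TPM in siNC replicates 1, 2 and 3 and at 244.63, 427.70 and 231.31 TPM in siPkm2, so the groups did not overlap. Its log2 fold change was -2.51 (SE 0.33, edgeR adjusted p = 0.0738) and -2.53 (SE 0.13, edgeR adjusted p = 0.00932) when replicate number entered the fit as a block. Both replicate 2 libraries stood apart: 10 inflammatory response genes summed to 34443 TPM in siNC and 32321 TPM in siPkm2 replicate 2, against 54.7 to 375 TPM in the other 4 libraries, and 11 chondrocyte markers summed to 4344 and 5801 TPM there, against 16719 to 21260 TPM. Col2a1, the leading chondrocyte marker, was present in every library, at 3014.71 TPM or more.

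Levels between the 10 genes are given as TPM, which corrects for gene length. Averaged over all 6 libraries, Spp1 stood highest at 4223 TPM, followed by Mgp at 1446, Ibsp at 97.9, Phospho1 at 36.4, Enpp1 at 21.8, Alpl at 20.1, Sp7 at 8.52, Phex at 0.537, Dmp1 at 0.105 and Mepe at 0.03 TPM. The order is not that of every library: Spp1 was above Mgp in 4 of 6 libraries, with Mgp higher in both replicate 3 libraries, siNC replicate 2 carried the mean of Spp1, and Enpp1 was above Alpl in 2 of 6, both of replicate 2. The ranges of neighbours in this order overlapped except between Mgp and Ibsp and between Sp7 and Phex. Spp1 and Mgp together made up nearly all of the summed TPM of the 10 genes, with Spp1 alone at 52.6%, 93.5% and 41.3% in siNC replicates 1, 2 and 3 and at 53.5%, 87.9% and 32.0% in siPkm2. The sum of the 10 was 5640, 14505 and 4496 TPM in siNC and 3109, 5249 and 2132 TPM in siPkm2, lower in siPkm2 within every replicate number. In bulk RNA, fewer cells of a type and less RNA per cell cannot be told apart.

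**Figure D1:**
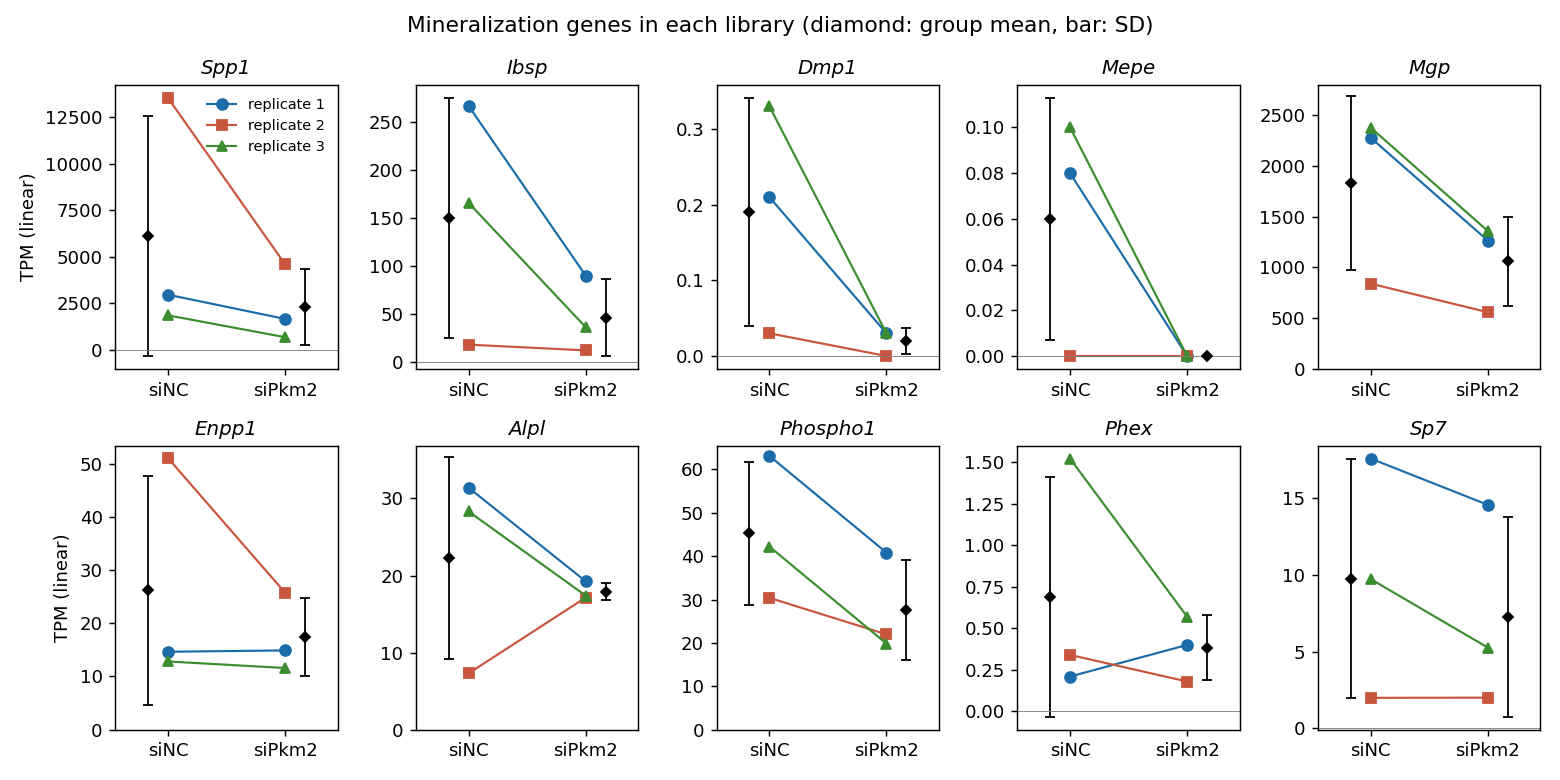
TPM of the 10 mineralization genes in each library, on linear axes, 1 panel per gene, with lines joining libraries of the same replicate number; black diamonds are group means and bars the SD (n = 3). The siNC and siPkm2 libraries overlap in every panel. The lines of Spp1, Ibsp, Mgp and Phospho1 all fall, as do those of Dmp1, which had too few counts to test. The replicate 2 line of Alpl rises from 7.31 to 17.14 TPM.

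The comparison of siPkm2 with siNC asks which of these genes move when Pkm2 is depleted. Of the 10 genes, 8 passed edgeR's filter on low counts and were tested, whereas Dmp1 and Mepe were not. Without the replicate block, 0 of the 8 were called, where a call took both an adjusted p under 0.05 and a change of more than 2-fold, and none had an unadjusted p under 0.05; across all 15269 genes tested by edgeR the call was made for 0.0%, with 2690 genes at an unadjusted p under 0.05, while DESeq2's Wald test without a block called 430 genes but none of the 8. The libraries were paired by replicate number, and with that number as a block 2 of the 8, Spp1 and Ibsp, were called lower, against 3.18% of all genes tested. An adjusted p under 0.05 with no threshold on the fold was reached by 4 of the 8, Spp1, Ibsp, Mgp and Phospho1, all lower, against 10.8% of all genes lower and 12.3% higher. CPM, counts scaled to library size with TMM factors, were lower in siPkm2 in all 3 pairs for 5 of the 8, those 4 and Enpp1, against 30.6% of all genes. In TPM pair 1 of Enpp1 was not lower, at 14.65 in siNC and 14.90 in siPkm2. In 0 of the 8 did every siPkm2 library lie below every siNC library in TPM, against 12.9% of all genes. The log2 fold changes of all 8 were negative in both fits, where 7928 of all 15269 genes tested were negative without the block. The median of the 8 was -0.70 without and -0.60 with the block, where the medians over all genes tested were -0.02 and -0.01. Because the low-count filter selected these 8, the medians describe them and not all 10.

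**Figure D2:**
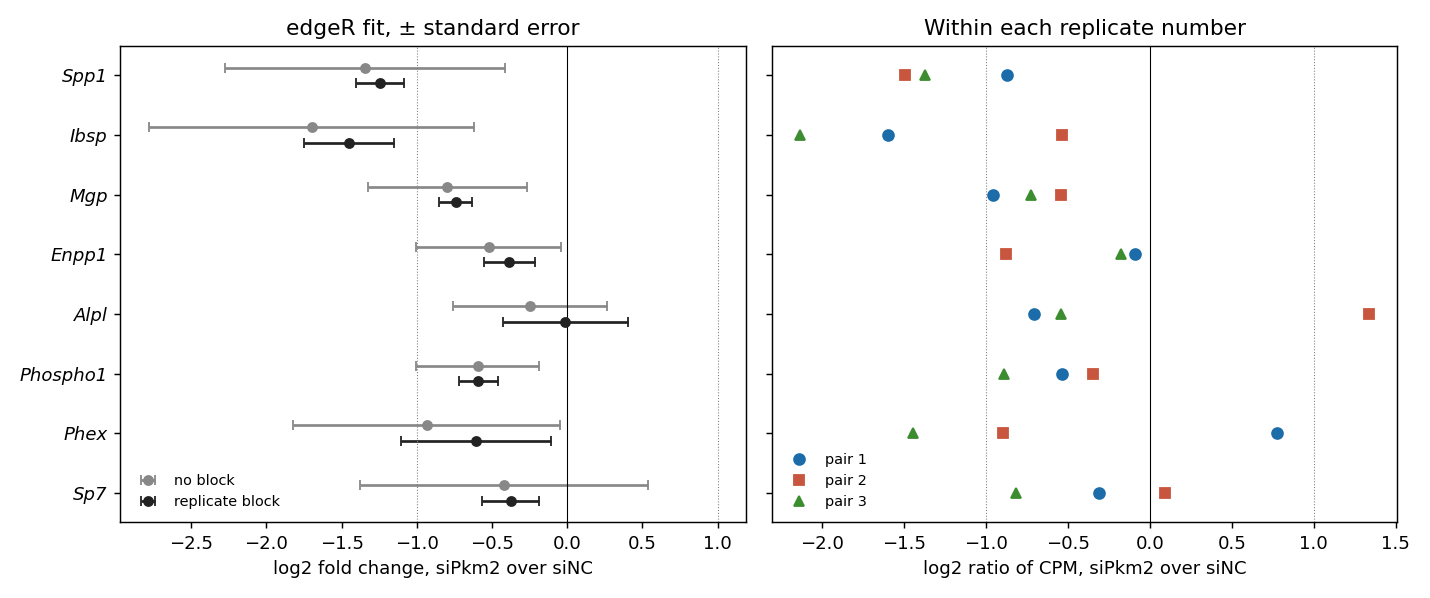
Log2 fold changes of the 8 tested genes, siPkm2 over siNC: left, edgeR estimates with standard errors without (grey) and with (black) the replicate block; right, log2 ratios of CPM within each replicate number. Dotted lines mark a fold of 2, and the block shortens the bars of Spp1 from 0.93 to 0.16 and of Ibsp from 1.08 to 0.30, while the 3 pairs of Alpl fall on both sides of 0.

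Among the mineral-binding SIBLING proteins, Spp1 stood at 2968.17, 13556.22 and 1857.27 TPM in siNC replicates 1, 2 and 3 and at 1664.45, 4611.60 and 682.61 TPM in siPkm2. Replicate 2 was the highest library of both groups, and the groups overlapped, but each siPkm2 library was below the siNC library of its number, by 1.78, 2.94 and 2.72 times. The log2 fold change was -1.35 (SE 0.93, edgeR adjusted p = 0.504) without the block and -1.24 (SE 0.16, edgeR adjusted p = 0.0133) with it, a level 2.37 times lower in siPkm2. Without siNC replicate 2 and without a block the log2 fold change was -0.10. Left out as a pair with the block kept, replicate 2 gave -1.13 (edgeR adjusted p = 0.00149), replicate 1 gave -1.43 (edgeR adjusted p = 0.0642) and replicate 3 gave -1.18 (edgeR adjusted p = 0.105). Over all genes, these 3 fits of 2 pairs each called 1639, 0 and 0 genes, and the cause was not tested.

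Ibsp, bone sialoprotein, a nucleator of mineral made by osteoblasts and hypertrophic chondrocytes, stood at 266.68, 17.67 and 165.61 TPM in siNC and at 89.69, 11.66 and 35.87 TPM in siPkm2. Unlike Spp1, which was highest in replicate 2, it was lowest there in both groups, and the groups overlapped. Within numbers it was lower by 2.97, 1.52 and 4.62 times. The edgeR estimate of the log2 fold change was -1.70 (SE 1.08, edgeR adjusted p = 0.468) without and -1.45 (SE 0.30, edgeR adjusted p = 0.0278) with the block, a level 2.73 times lower. Leaving out 1 library moved the value without a block from -0.89 (without siNC replicate 1) to -2.69 (without siPkm2 replicate 1). Without the replicate 2 pair it was -1.87 (edgeR adjusted p = 0.000258) with the block, and without the replicate 1 or the replicate 3 pair it was -1.36 (edgeR adjusted p = 0.124) or -1.08 (edgeR adjusted p = 0.127).

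Dmp1 and Mepe, SIBLING genes best known from osteocytes, were near the limit of detection. Dmp1 had 9, 1 and 12 counts in siNC and 1, 0 and 1 in siPkm2, 22 against 2 in all. The ratio of siPkm2 to siNC over the pooled libraries was 0.0934, with an exact 95% interval of 0.0106 to 0.380 that covers counting error only and not the spread between libraries. Mepe had 2, 0 and 2 counts in siNC and 0 in every siPkm2 library, where a count of 0 allows up to 3 counts over the group, so no difference was detectable at this depth.

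These 4 genes lie in 1 cluster on chromosome 5, on the plus strand. In GENCODE M21 on GRCm38, which gave every gene position here by Ensembl identifier and is a later build than the mm9 of the submitters' notes, the cluster runs from the start of Dmp1 at chr5:104202613 to the end of Spp1 at 104441050, a length of 238.438 kb, with Ibsp at chr5:104299171-104311469 and Mepe at chr5:104325329-104338611. Dspp, the fifth SIBLING gene beside Dmp1, was listed at 0 in all 6 libraries. Protein-coding neighbours within 200 kb, looked up after the values were seen, were read beside them. Hsd17b11, Nudt9 and Pkd2 were not called with the block (log2 fold changes of -0.20, -0.18 and -0.14, edgeR adjusted p = 0.238, 0.213 and 0.287), and Gm17660 was listed at 0. Sparcl1, a secreted relative of Sparc, stood at 10.34, 8.05 and 38.57 TPM in siNC and 1.19, 3.16 and 7.48 TPM in siPkm2, lower with the block by a log2 fold change of -2.18 (SE 0.33, edgeR adjusted p = 0.0165) and not called without it (edgeR adjusted p = 0.247).

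**Figure D3:**
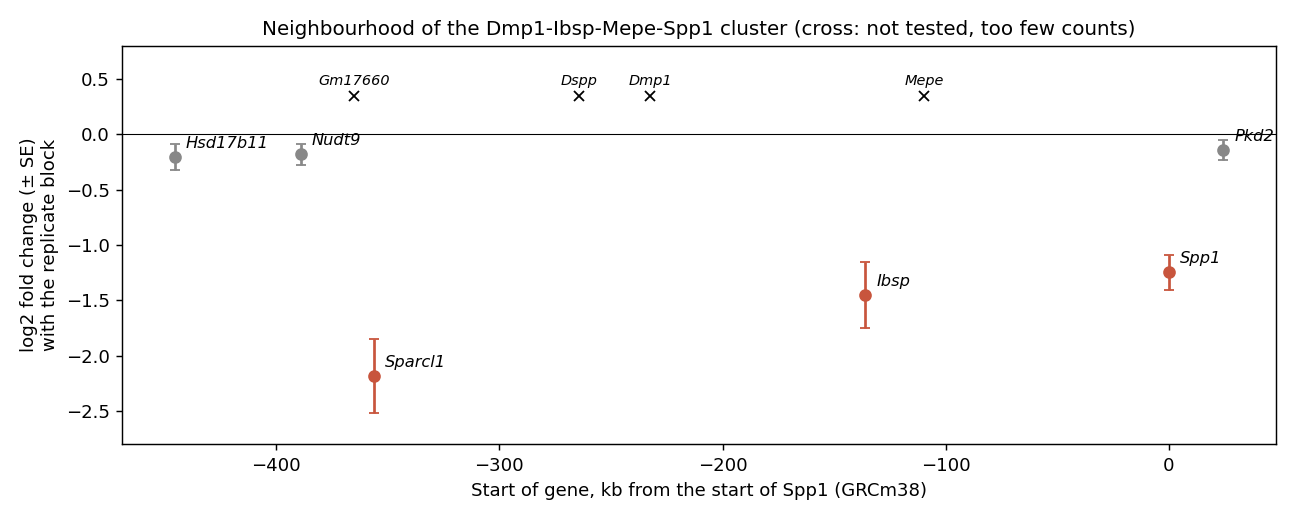
Log2 fold changes with the replicate block (siPkm2 over siNC, points with standard errors) of the genes around the SIBLING cluster, placed by the distance of each gene's start from the start of Spp1 in kb; red points have an edgeR adjusted p under 0.05 and crosses mark genes with too few counts to test. Sparcl1, Ibsp and Spp1 sit at -2.18, -1.45 and -1.24, and Hsd17b11, Nudt9 and Pkd2 between -0.20 and -0.14.

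RUNX factors, among them RUNX2 of osteoblasts and hypertrophic chondrocytes, bind the core TGTGGT. RefSeq promoters on GRCm38.p6, from 250 bases before to 50 after a gene start, numbered 11 for 8 of the 10 genes, and none was looked at for Mgp and Sp7. The core on either strand was in 4 of the 11 promoters, 1 each of Dmp1, Mepe, Spp1 and Enpp1, against 16.8% of 32851 promoters. By gene, 4 of 8 held it in at least 1 promoter, against 18.9% of 27025 genes. The windows are shown to give the letters around each match, read 5′ to 3′ on the gene's strand with the core or its reverse complement in capitals; counted from the RefSeq start of each promoter, which can differ from the GENCODE start, the capitals begin at -128 in Spp1, -164 in Dmp1, -118 in Mepe and -144 in Enpp1, and Mepe held a second match on the plus strand at -80.
Spp1, chr5:104434971-104435000, plus strand: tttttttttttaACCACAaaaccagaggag
Dmp1, chr5:104202441-104202470, plus strand: agtcatttgagaACCACAagagctttttag
Mepe, chr5:104325199-104325228, plus strand: tagcagctttccACCACAaaacatttttag
Enpp1, chr10:24712286-24712315, minus strand: cactctttgcagACCACAcagcgattccag
The promoters of Ibsp, Alpl, Phospho1 and Phex and a second promoter each of Spp1 and Dmp1 did not hold these letters. Of the 4 genes lower with the block, Spp1 held the core in 1 of its promoters, Ibsp and Phospho1 did not hold it, and Mgp was not looked at. Runx2 itself stood at 17.29, 16.50 and 17.98 TPM in siNC and 13.26, 13.75 and 13.74 TPM in siPkm2, groups that did not overlap. It did not pass the main test, with a log2 fold change of -0.43 (edgeR adjusted p = 0.253) without and -0.41 (SE 0.12, edgeR adjusted p = 0.0587) with the block. With the block, upper-quartile factors gave -0.48 (edgeR adjusted p = 0.0442) and leaving out the replicate 2 pair gave -0.57 (edgeR adjusted p = 0.00309), both under the fold of 2. Leaving out the replicate 1 or the replicate 3 pair gave -0.34 each (edgeR adjusted p = 0.26 and 0.289).

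An siRNA can lower other transcripts through its seed, bases 2 to 8 of the antisense strand. The study designed 3 siRNAs and selected the third, and does not state which was in the sequenced cultures. The antisense strand of the third, with its seed in capitals, and the matching site in the 3′ untranslated region (UTR) of Spp1 are printed because Spp1 alone of the 10 genes held a match, in the longest annotated region.
siPkm2 #3 antisense: uGUUUCUCcagacagcaug
Spp1, chr5:104440934-104440954, plus strand: attaaaaGAGAAACtgtaaca
The match began at base 323 of the 432 bases of that region. Such a match was held by 16.4% of 13202 tested genes with an annotated 3′ UTR, and its part in the lower level of Spp1 was not tested.

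Of Mgp and Enpp1, the genes grouped here as holding mineral back, Mgp (chr6:136872435-136875823, minus strand) was the more abundant. It stood at 2278.12, 840.19 and 2377.75 TPM in siNC and 1264.71, 558.84 and 1359.20 TPM in siPkm2. Replicate 2 was again the lowest of both groups, and siPkm2 was lower in each pair by 1.8, 1.5 and 1.75 times. The log2 fold change was -0.80 (SE 0.53, edgeR adjusted p = 0.485) without and -0.74 (SE 0.11, edgeR adjusted p = 0.0157) with the block, under the fold of 2. Without the replicate 1, 2 and 3 pairs in turn, the blocked adjusted p of edgeR was 0.0898, 0.00133 and 0.11. Without the replicate 2 pair and without a block, the edgeR adjusted p of Mgp was 0.0457.

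Enpp1 (chr10:24637914-24712159, minus strand), which makes extracellular pyrophosphate, stood at 14.65, 51.07 and 12.82 TPM in siNC and 14.90, 25.78 and 11.59 TPM in siPkm2. The replicate 2 libraries were the highest of both groups, and pairs 1 and 3 differed little, with log2 ratios of CPM of -0.09 and -0.18 against -0.88 in pair 2. The log2 fold change was -0.52 (SE 0.48, edgeR adjusted p = 0.629) and, with the block, -0.39 (SE 0.17, edgeR adjusted p = 0.15).

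Alpl (chr4:137741733-137796384, minus strand), the alkaline phosphatase that removes pyrophosphate, stood at 31.39, 7.31 and 28.31 TPM in siNC and 19.25, 17.14 and 17.39 TPM in siPkm2. The siPkm2 libraries were close to each other and lay within the siNC range. Pairs 1 and 3 were lower in siPkm2 by 1.63 times each, and pair 2 was higher, so that the log2 fold change was -0.25 (SE 0.51, edgeR adjusted p = 0.853) without and -0.01 (SE 0.42, edgeR adjusted p = 0.984) with the block. Without the replicate 2 pair it was -0.64 with the block (edgeR adjusted p = 0.00321), still under the fold of 2, and without the replicate 1 or the replicate 3 pair it was 0.37 or 0.29, the opposite direction.

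The TPM ratio of Alpl to Enpp1 sets the enzyme that removes pyrophosphate beside the one that makes it. It was 2.14, 0.143 and 2.21 in siNC and 1.29, 0.665 and 1.5 in siPkm2. The siNC values spanned those of siPkm2, and the mean log2 ratio was higher in siPkm2 by 0.31, with a two-sided exact permutation p of 1, where 3 against 3 libraries cannot go below 0.1. Without both replicate 2 libraries the difference was -0.64.

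Phospho1 (chr11:95824499-95832140, plus strand), the phosphatase inside matrix vesicles, stood at 63.11, 30.39 and 42.21 TPM in siNC and 40.82, 21.97 and 19.85 TPM in siPkm2. It was lower in each pair, by 1.55, 1.38 and 2.13 times, although the groups overlapped. Its log2 fold change was -0.60 (SE 0.41, edgeR adjusted p = 0.497) and, with the block, -0.59 (SE 0.13, edgeR adjusted p = 0.0334), under the fold of 2. Without the replicate 1, 2 and 3 pairs in turn, edgeR's blocked adjusted p was 0.14, 0.00521 and 0.187.

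Sp7 (chr15:102356606-102367182, minus strand), required for osteoblast formation, stood at 17.60, 1.98 and 9.73 TPM in siNC and 14.58, 1.99 and 5.26 TPM in siPkm2. Replicate 2 was far below the others in both groups, and the log2 ratio of CPM in pair 2 was 0.10, against -0.31 and -0.81 in pairs 1 and 3. In the fit over both groups, the log2 fold change was -0.42 (SE 0.96, edgeR adjusted p = 0.866) and, with the block, -0.38 (SE 0.19, edgeR adjusted p = 0.193). Without the replicate 2 pair the blocked value was -0.55 (edgeR adjusted p = 0.0255), under the fold of 2.

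Phex (chrX:157162075-157415312, minus strand), a membrane peptidase that acts on SIBLING peptides and is mutated in X-linked hypophosphatemia, was low, at 17, 25 and 122 counts in siNC and 25, 14 and 43 counts in siPkm2. One pair was higher and the other two lower, and the log2 fold change was -0.94 (SE 0.89, edgeR adjusted p = 0.642) without and -0.61 (SE 0.50, edgeR adjusted p = 0.402) with the block.

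The replicate 2 libraries, high in inflammatory genes, differed from the other libraries of their own group by more than the groups differed for several of these genes. Relative to the mean of replicates 1 and 3, Spp1 in replicate 2 was 5.62 times higher in siNC and 3.93 times higher in siPkm2, and Enpp1 3.72 and 1.95 times higher. Ibsp was 12.2 and 5.38 times lower, Sp7 6.90 and 4.98 times lower, Mgp 2.77 and 2.35 times lower and Phospho1 1.73 and 1.38 times lower. Alpl was 4.08 times lower in siNC and 1.07 times lower in siPkm2. With 1 such library per group these values are a description, and the part of the inflammatory genes in them was not tested.

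**Figure D4:**
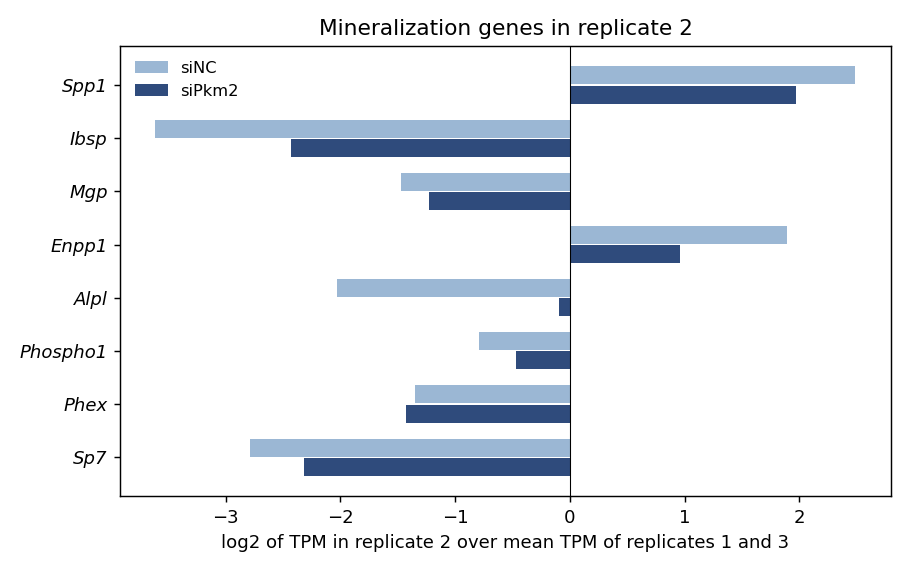
Log2 of the TPM in replicate 2 over the mean TPM of replicates 1 and 3, for the 8 tested genes in siNC (light bars) and siPkm2 (dark bars), with no error because each bar compares 1 library with 2. Spp1 and Enpp1 lie above 0 in both groups, the other genes below, and the bars of Alpl differ most in length, from 4.08 to 1.07 times lower.

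The wider set held 52 other genes of mineralization in 6 lists by role, of which 51 were in the table and 41 were tested. Without the block 0 of the 41 were called by edgeR, with 9 at an unadjusted p under 0.05 (5 lower and 4 higher). Over all 15269 genes tested, 2690 had such an unadjusted p. DESeq2 without a block called Sparc and Tnfrsf11b, among 430 genes in all. With the block edgeR called 1 lower, Sparc, and 1 higher, Tnfrsf11b, against 485 lower and 405 higher of all 15269 genes tested. An adjusted p under 0.05 with the block was reached by 4 lower and 5 higher genes of the 41, near the 10.8% and 12.3% of all genes. Without the block 0 of the 41 reached it in edgeR, at any fold. The median log2 fold change of the 41 was -0.32 without and -0.24 with the block.

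Among matrix vesicle and calcium binding proteins (8 tested), 2 fell and 3 rose with the block, against 10.8% and 12.3% of all genes. Sparc, osteonectin, a collagen- and calcium-binding protein of bone matrix, stood at 5081.77, 3287.98 and 7029.66 TPM in siNC and 1282.68, 681.78 and 1478.00 TPM in siPkm2. The groups did not overlap, and the log2 fold change was -2.12 (edgeR adjusted p = 0.125) without and -2.13 (SE 0.12, edgeR adjusted p = 0.0093) with the block. Its 3′ UTR also held the seed match of the third siRNA, which was in 6 of the 41 tested genes of the wider lists (14.6%, against 16.4% of all), 2 of them lower with the block, Sparc and Xpr1. Runx2 was another of the 6, and the part of the match in these levels was not tested. Anxa2 and Anxa5, annexins of matrix vesicles, and S100a4, a calcium-binding protein, were higher with the block by log2 fold changes of 0.51, 0.77 and 0.63 (edgeR adjusted p = 0.0222, 0.0158 and 0.0165). Fam20c, the kinase that phosphorylates SIBLING proteins, had a log2 fold change of -0.32 with the block (edgeR adjusted p = 0.0362). Without the block its edgeR adjusted p was 0.842, and DESeq2 with the block gave an adjusted p of 0.0547.

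Of the other inhibitors and vitamin K cycle genes (7 tested), 1 fell and 1 rose with the block, against 10.8% and 12.3% of all genes. Tnfrsf11b, osteoprotegerin, a decoy receptor that limits osteoclasts and whose loss calcifies arteries, stood at 127.84, 189.62 and 60.52 TPM in siNC and 616.53, 381.01 and 364.07 TPM in siPkm2. Every siPkm2 library was above every siNC library, with a log2 fold change of 1.90 (edgeR adjusted p = 0.14) without and 2.0 (SE 0.32, edgeR adjusted p = 0.0173) with the block. Ggcx, the carboxylase that activates matrix Gla protein, was lower by -0.60 (edgeR adjusted p = 0.0202 with the block), from 22.50 to 43.92 TPM in siNC to 16.55 to 22.89 TPM in siPkm2. Vkorc1, which recycles vitamin K for Ggcx, at 149.29 to 359.59 and 133.38 to 259.47 TPM, and Ucma, a Gla protein of cartilage, at 143.19 to 1300.21 and 217.52 to 723.49 TPM, did not pass.

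Phosphate and pyrophosphate handling (6 tested) gave 1 lower gene with the block, against 10.8% of all genes. It was Xpr1, the phosphate exporter, at 15.29 to 17.15 TPM in siNC and 9.20 to 12.69 TPM in siPkm2 (log2 fold change -0.49, edgeR adjusted p = 0.0189). The genes of highest level, Nt5e, which makes adenosine, the phosphate carrier Slc20a1 and the vesicle sphingomyelinase Smpd3, did not pass; Smpd3 stood at 82.54, 6.39 and 65.65 TPM in siNC and 76.21, 5.80 and 32.78 TPM in siPkm2, low in replicate 2.

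None of the 8 osteoblast transcription factors tested passed in the main fits, with or without the block. Of the 8, 6 had negative log2 fold changes, against 7928 of the 15269 genes tested without the block. CPM were lower in siPkm2 in all 3 pairs for 5 of the 8, against 30.6% of all genes. In 3 of the 8 every siPkm2 library lay below every siNC library in TPM, against 12.9% of all genes. With the block and without the replicate 2 pair, Runx2 passed at -0.57 (edgeR adjusted p = 0.00309), under the fold of 2. In that fit Dlx5 was called lower, as were 889 of all 15185 genes tested. Atf4 stood at 183.41 to 472.07 TPM in siNC and 209.03 to 434.31 TPM in siPkm2, and Twist1 at 46.16 to 65.42 and 41.15 to 47.18 TPM. None of the 5 osteoblast matrix genes tested passed either: Col1a1, of type I collagen, stood at 766.18, 885.12 and 1599.86 TPM in siNC and 359.10, 868.42 and 868.27 TPM in siPkm2, and its partner Col1a2 and the keratan sulfate proteoglycan Omd also overlapped between groups. Of 7 hypertrophic chondrocyte genes, 1, Mef2d, a transcription factor, was higher with the block by 0.71 (edgeR adjusted p = 0.0239), against 12.3% of all genes. Mmp13, the collagenase of hypertrophic cartilage, stood at 292.98, 794.25 and 169.06 TPM in siNC and 125.52, 1064.98 and 60.20 TPM in siPkm2, lower in pairs 1 and 3 and higher in pair 2, and Vegfa did not pass.

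**Figure D5:**
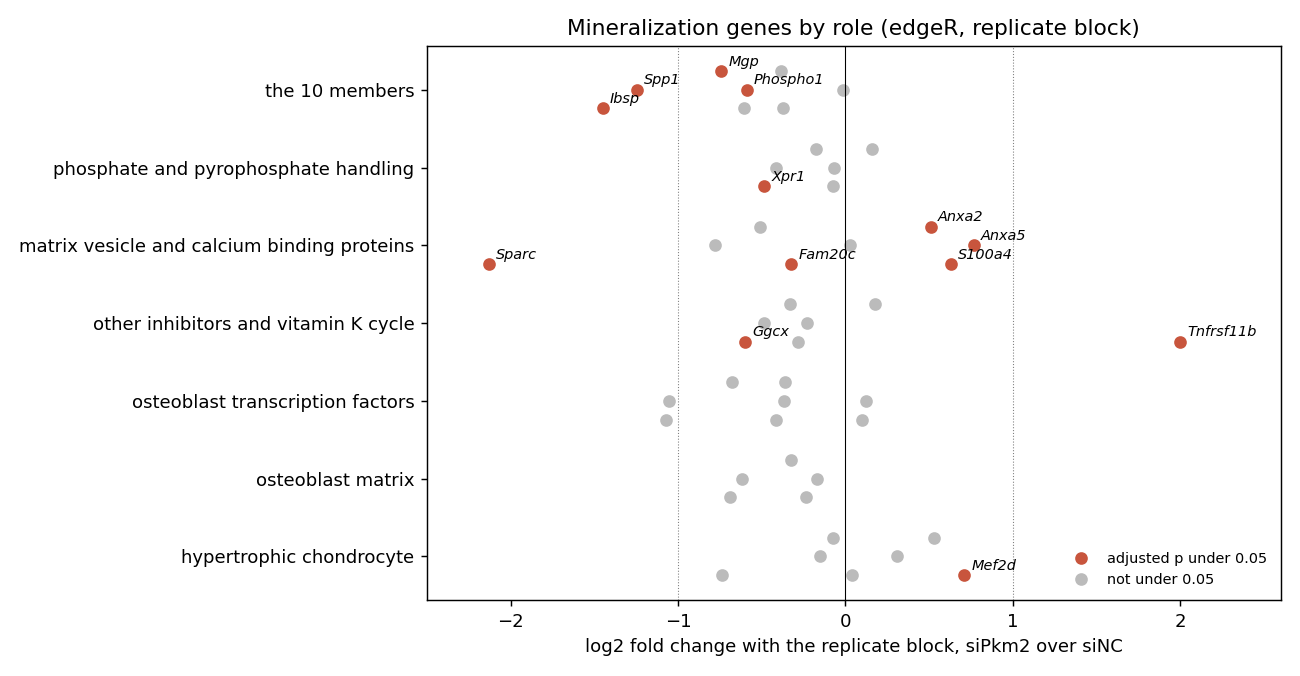
Log2 fold changes with the replicate block, siPkm2 over siNC, 1 point per tested gene, in rows by role, with the 8 tested of the 10 mineralization genes in the top row; red points have an edgeR adjusted p under 0.05 and carry their symbols. Of the red points, Sparc at -2.13, Ibsp at -1.45, Spp1 at -1.24 and Tnfrsf11b at 2.0 lie beyond the dotted lines of a 2-fold change. No osteoblast transcription factor or osteoblast matrix gene is red.

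Markers of other cells were read beside these results. Pericyte and smooth muscle markers summed to 209 to 535 TPM in siNC and 73.7 to 119 TPM in siPkm2. With the block 3 of the 4 tested, Acta2, Cnn1 and Tagln, were lower, against 10.8% of all genes. Myh11 and Rgs5 were at or below 1 TPM. Osteoclast markers summed to 108 to 113 and 163 to 309 TPM, carried by Ctsk. Of the 3 tested, Ctsk was called higher with the block, and Mmp9, at 1.33 to 2.34 and 0.32 to 0.79 TPM, was called lower. Over all 15269 genes tested, 405 were called higher and 485 lower. Ocstamp, Dcstamp, Oscar and Calcr were at or below 1 TPM. Synovial fibroblast markers summed to 511 to 678 and 727 to 751 TPM, and skeletal muscle markers to 6.60 to 13.2 and 3.0 to 3.90 TPM. Of the 6 synovial genes tested, 3 had negative log2 fold changes. With the block 2 of the 6, Prg4 and Cd55, were higher, against 12.3% of all genes. Of the 3 muscle genes tested, 1, Tnnt3, was lower with the block, against 10.8% of all genes. Macrophage markers summed to 10.3 to 99.1 and 13.3 to 58.7 TPM, highest in replicate 2, with Ptprc, Adgre1, C1qa and C1qb at or below 1 TPM, and all 5 endothelial markers were at or below 1 TPM. Of the inflammatory genes, 3 of the 8 tested, Il6, Cxcl1 and Tnfaip3, were higher with the block, against 12.3% of all genes. Il6 and Cxcl1 were higher by more than 2-fold, as were 405 of all 15269 genes tested. The summed level was 54.7 and 132 TPM in siNC replicates 1 and 3 and 185 and 375 TPM in siPkm2 replicates 1 and 3. The part of these cells and of the inflammatory genes in the lower levels of Spp1, Ibsp, Mgp and Phospho1 was not tested.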

How the data were processed

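Per the labels, RNA was extracted with Trizol and sequenced on Illumina libraries. The authors deposited estimated counts, not normalized, and TPM values per gene and library; the submitters' processing notes name mm9 and edgeR, and the aligner and counter are not given in the sources used here. The deposited table also holds group means and the authors' own fold changes and p-values, which were not used. Estimated counts were rounded; edgeR 4.0.16 in R 4.3.3 was run on them (filterByExpr, TMM factors, quasi-likelihood test, Benjamini-Hochberg over 15269 genes). A call needed a fold over 2 and an adjusted p under 0.05. Standard errors (SE) of edgeR estimates were computed here as the absolute log2 fold change over the square root of the quasi-likelihood F statistic. DESeq2 1.42.0, limma 3.58.1 on log2(TPM + 1) and log2(TPM + 0.1), other factors and filters, and left-out libraries were alternatives. Replicate numbers, from the titles, pair the libraries: the deviations of same-numbered libraries from their group means correlated at 0.72, 0.79 and 0.72, and no other pair exceeded 0.22; blocked values stand beside each result they change. Depth, 22316996 to 25691029 counts, was similar, so precision rests on 3 libraries per group. Scripts were tested on simulated data. Within a group 56.5% to 76.5% of genes differed beyond counting noise, so no library was a duplicate. Beyond the 10 genes, the called genes of each list were named, and the highest in TPM to bring a list to 3; genes with a blocked adjusted p under 0.05, Runx2's fold, further markers and chromosome 5 neighbours were added after values were seen. The genes and lists were chosen with earlier results of these data known.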

Additional observations from a re-analysis of the deposited data

How the results depend on the processing

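Against 0 genes called without a block, the replicate block gave 890 calls over all genes, 2 of the 8 tested mineralization genes (Ibsp and Spp1) and 2 of the wider lists (Sparc and Tnfrsf11b). With the block, RLE factors gave 900, 2 and 2, upper-quartile factors 935, 2 and 2, DESeq2 1028, 2 and 2, and no threshold on the fold 3524, 4 and 9. Without a block, DESeq2 gave 430 calls over all genes and 2 in the wider lists, upper-quartile factors 3 and at least 10 counts in every library 3 (Txndc12, Sorcs2 and Tmem65 in both), limma 1 with either pseudocount (Txndc12), and no filter 9, with 0 mineralization genes in each. Leaving out both replicate 2 libraries gave 507 calls and 2 in the wider lists (Sparc and Bmp4) and, with the block, 1639, 2 (Ibsp and Spp1) and 7 (Sparc, Bmp4, Abcc6, Dlx5, Nog and Mmp13 lower, Tnfrsf11b higher); with the block and without both replicate 1 or both replicate 3 libraries there were 0. Leaving out 1 library gave 0 to 105 calls over all genes, the 105 without siNC replicate 2. The replicate 1 and 3 left-out pairs and the RLE and upper-quartile fits with the block were chosen after seeing the data. The log2 fold change of Alpl turned positive with DESeq2 and the block (0.015) and with the block without the replicate 1 (0.37) or replicate 3 (0.29) pair. With 1 library left out, values ranged from -2.26 to -0.10 for Spp1, -2.69 to -0.89 for Ibsp, -1.16 to -0.47 for Mgp, -1.01 to -0.23 for Phospho1, -0.67 to 0.17 for Alpl, -1.46 to 0.41 for Sp7, -0.83 to 0.18 for Enpp1, -1.45 to 0.53 for Phex and -1.06 to 0.41 for Fam20c. The log2 difference of the Alpl to Enpp1 ratio, 0.31 with an exact p of 1 also when paired by the replicate block, ranged from -1.0 to 0.97 and was -0.64 without both replicate 2 libraries. The cause of these changes was not tested. Of 168 alternative values for the 8 mineralization genes, 150 kept their direction and side of the threshold, 10 newly passed and 8 reversed; of 210 for 10 wider genes, 196, 13 and 1. For Dmp1 and Mepe the low counts set the limit, and for the other genes the spread between 3 libraries per group.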
